A study of Mus musculus with 8 samples.

Results

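CircRNAs, RNA loops closed by a back-splice, were counted in mouse kidney for 3 host genes of the Hippo signalling pathway: Ptpn14, Trip6 and Amotl1. Every listed circRNA whose host name was one of these 3 was taken, which gave 4 of the 6315 circRNAs in the deposited tables: mmu_circ_0000130 of Ptpn14, mmu_circ_0012217 of Trip6, and mmu_circ_0001745 and mmu_circ_0015414 of Amotl1. The hosts had been picked because, in an earlier fit of the same counts, a circRNA of each differed between an injured group and control, so the values below that repeat those contrasts are a description and not a test. Of the 4 circRNAs, 3 passed the filter on low counts; mmu_circ_0015414, with 28 counts in all 8 libraries together, did not.

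The libraries came from total RNA of kidneys of mice aged 8 to 10 weeks, of the strain written C57BL/6L in the labels. The control group has 3 libraries, titled WT and described as sham-operated in the design text. Of the 5 injured libraries, 3 had unilateral ureteral obstruction (UUO) and 2 belong to a group labelled acute-chronic (AC), for which the design text appears to write I/R; in both the kidneys were taken at day 5. No transgene or deletion is named for any group. Whether each library is a separate animal is not stated. The adjusted p-values below therefore set differences against a spread between libraries that may be technical. Total counts per library were between 40865 and 65145, and 1 count was worth between 18.9 and 29.2 CPM, the usual scaling of counts to library size, here with the totals left after the filter and TMM factors. In a bulk kidney library fewer cells of a type and less RNA per cell cannot be told apart, and the linear transcripts of the hosts were not analysed here.

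The Hippo pathway is a kinase cascade in which the STE20-like kinases Stk3 and Stk4 activate Lats1 and Lats2, which phosphorylate the coactivators Yap1 and Wwtr1 (TAZ) and keep them out of the nucleus. When the cascade is off, Yap1 and TAZ bind the TEAD transcription factors and drive genes of growth, matrix and cytoskeleton, and in the kidney they are known to be active after tubular injury and in fibrosis. The 3 hosts encode regulators at the level of Yap1 and Lats and not the kinases themselves. Ptpn14 is a non-receptor tyrosine phosphatase that binds Yap1 and holds it in the cytoplasm. Trip6 is a LIM-domain adaptor of the zyxin family, found at adhesions and junctions, that binds Lats1 and Lats2 and limits their activity. Amotl1 is a member of the angiomotin family, junction proteins that bind Yap1 through PPxY motifs.

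Because TEAD factors bind the letters GGAATG, the promoter sequences of the 3 hosts are shown as context for the circRNAs described below. All 3 were found in the RefSeq table of promoters (build GRCm38.p6), each with 250 bases before and 50 after the start of the gene. The circRNA counts were made on build mm9, so these coordinates belong to the promoters only. Capitals mark GGAATG, or CATTCC, which is the same letters on the other strand. The stretches for Ptpn14 (chr1:189728018-189728215, plus strand) and Amotl1 (chr9:14615007-14615200, minus strand) were limited to bases outside annotated exons, and that for Trip6 (chr5:137314256-137314285, minus strand), where the table's start lies inside the first exon of a longer transcript, to the match and its flanks. Each runs 5′ to 3′ on the strand of the gene.
Ptpn14: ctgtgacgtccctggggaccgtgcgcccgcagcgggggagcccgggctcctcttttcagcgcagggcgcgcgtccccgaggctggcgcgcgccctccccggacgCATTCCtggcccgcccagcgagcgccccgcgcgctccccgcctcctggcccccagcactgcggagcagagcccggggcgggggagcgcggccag
Trip6: tgaccctcccctGGAATGtggtgacgtcag
Amotl1: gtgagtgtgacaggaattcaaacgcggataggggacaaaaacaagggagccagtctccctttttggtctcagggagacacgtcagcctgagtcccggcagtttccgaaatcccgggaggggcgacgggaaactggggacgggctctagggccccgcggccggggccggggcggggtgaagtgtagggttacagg
The full 300-base windows held 1 match in Ptpn14, which begins 146 bases before the start, and 1 in Trip6, which begins 32 bases before it. The Amotl1 window held none, which says only that these letters are not in that window. Of all 32851 promoters in the table, 14.7% hold the letters on either strand. Counted by gene, 14.5% of the 2081 genes with a listed circRNA and a promoter hold them in any of their promoters. A match is a description of sequence and not a binding site.

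The Ptpn14 circRNA was low in control kidney and higher in every injured library. Its counts in control replicates 1 to 3 were 29, 32 and 16, which is 771, 604 and 331 CPM. The AC libraries had 90 and 76 counts, or 2120 and 2217 CPM. UUO replicates 1 to 3 had 44, 98 and 67 counts, or 1117, 2289 and 1407 CPM. No injured library overlapped with control: the lowest injured value, 1117 CPM in UUO replicate 1, was above the highest control value of 771 CPM. The AC libraries lay close together, while UUO replicate 2 stood above both of them and the other UUO libraries below, so the UUO and AC ranges overlapped. The group means were 569 ± 222 CPM (SD, n = 3) in control, 2169 ± 68.3 CPM (SD, n = 2) in AC and 1604 ± 610 CPM (SD, n = 3) in UUO.

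In AC against control the Ptpn14 circRNA was 3.84-fold higher (log2 fold change 1.94, standard error 0.38, edgeR adjusted p = 0.0114, 95% interval of the fold from 2.20 to 6.68). In UUO it was 2.84-fold higher (log2 fold change 1.51, SE 0.35, adjusted p = 0.0261, interval from 1.70 to 4.76). By unadjusted p it ranked 12 of 1471 tested circRNAs in AC and 30 in UUO. The UUO call was lost without control replicate 3 (adjusted p = 0.115), UUO replicate 2 (0.134) or UUO replicate 3 (0.0768). The AC call was lost without control replicate 3 (adjusted p = 0.0558), AC replicate 1 (0.0657) or AC replicate 2 (0.0521), and both were lost when libraries were scaled by the deposited constant (0.0956 in UUO and 0.0553 in AC).

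**Figure D1:**
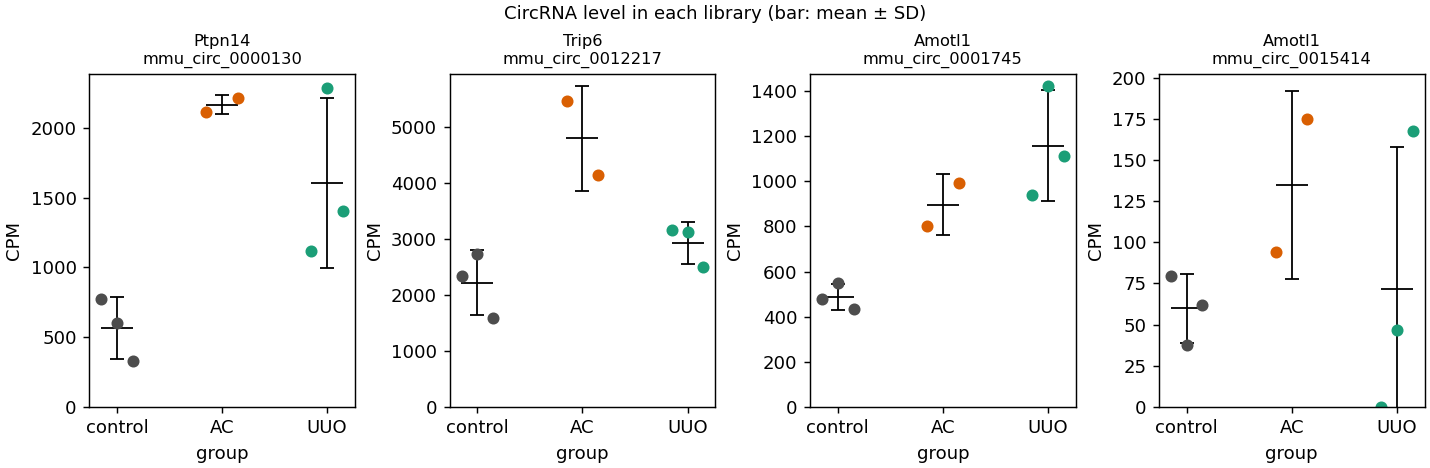
Level of each circRNA (y axis, CPM, linear from 0, a scale of its own in each panel) in every library of control (3), AC (2) and UUO (3). Points are libraries and bars the mean ± SD; the Ptpn14 and mmu_circ_0001745 panels show all 5 injured libraries above the 3 controls, and the Trip6 panel shows the AC libraries at 4142 and 5466 CPM above all others.

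The Trip6 circRNA had the most counts of the 4, 1062 over the 8 libraries. Control replicates 1 to 3 had 88, 145 and 77 counts, or 2340, 2737 and 1592 CPM. The AC libraries had 232 and 142 counts, or 5466 and 4142 CPM. UUO replicates 1 to 3 had 125, 134 and 119 counts, or 3172, 3129 and 2499 CPM. Both AC libraries were above every control and every UUO library. The UUO and control ranges overlapped, since UUO replicate 3 lay below control replicate 2. Group means were 2223 ± 581 CPM (SD, n = 3) in control, 4804 ± 936 CPM (SD, n = 2) in AC and 2933 ± 377 CPM (SD, n = 3) in UUO.

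In AC the Trip6 circRNA was 2.16-fold higher than in control (log2 fold change 1.11, SE 0.26, edgeR adjusted p = 0.0228, interval from 1.48 to 3.16). In UUO it did not pass: the fold was 1.32 with an interval from 0.931 to 1.87 (log2 fold change 0.40, SE 0.24, adjusted p = 0.448), which includes 1. The AC call was lost without control replicate 1 (adjusted p = 0.0501), control replicate 3 (0.114), AC replicate 1 (0.298) or AC replicate 2 (0.0592). In a fit of AC and control alone its fold change was of like size (log2 1.14) and the adjusted p was 0.102.

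The main Amotl1 circRNA, mmu_circ_0001745, had its highest level in UUO. Control replicates 1 to 3 had 18, 29 and 21 counts, or 479, 547 and 434 CPM, the narrowest control range of the 3 tested circRNAs relative to its mean. Both AC libraries had 34 counts, which at their depths is 801 and 992 CPM. UUO replicates 1 to 3 had 37, 61 and 53 counts, or 939, 1424 and 1113 CPM. All 5 injured libraries were above all 3 controls, and UUO replicate 1 lay between both AC libraries. Group means were 487 ± 57.0 CPM (SD, n = 3) in control, 896 ± 135 CPM (SD, n = 2) in AC and 1159 ± 246 CPM (SD, n = 3) in UUO.

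In UUO mmu_circ_0001745 was 2.37-fold higher than in control (log2 fold change 1.25, SE 0.32, edgeR adjusted p = 0.0397, interval from 1.48 to 3.81). In AC the fold was 1.83 with an interval from 1.07 to 3.11 (log2 fold change 0.87, SE 0.36), and it did not pass (adjusted p = 0.272, unadjusted p = 0.0286). The UUO call was the least stable of those listed here and held in 1 of 8 settings that left out a library. It was lost without control replicates 1, 2 or 3 (adjusted p = 0.0782, 0.0547 and 0.149), without AC replicate 1 (0.0504) and without UUO replicates 1, 2 or 3 (0.0632, 0.155 and 0.126), with fold changes between 2.12 and 2.61 throughout.

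The second Amotl1 circRNA, mmu_circ_0015414, was too low to be tested. It had 3, 2 and 3 counts in control, 4 and 6 in AC, and 0, 2 and 8 in UUO. As a share of all Amotl1 circRNA counts it made up 10.5% in control (exact Clopper-Pearson 95% interval 4.66 to 19.7%), 12.8% in AC (6.32 to 22.3%) and 6.21% in UUO (3.02 to 11.1%). The intervals come from summed counts, cover counting error only and overlap between all groups. The UUO libraries differed among themselves, with 0, 3.2 and 13.1% in replicates 1 to 3. A difference in the share of the 2 loops between groups was not tested. Its source transcript is annotated in GENCODE M21 as a processed transcript of 14 exons, while that of mmu_circ_0001745 is the protein-coding RefSeq transcript with 13. With both circRNAs summed, Amotl1 was 2.16-fold higher in UUO (adjusted p = 0.0486 over 1185 host genes) and 1.83-fold in AC (adjusted p = 0.258).

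In the comparisons with control, Ptpn14 and Amotl1 were thus past the threshold of 0.05 in UUO, where 64 of 1471 tested circRNAs (4.35%) were called and 42 of them (2.86%) as higher. Ptpn14 and Trip6 were past it in AC, where 49 (3.33%) were called and 28 (1.90%) as higher. In UUO, 2 of the 3 tested circRNAs were higher with no overlap between groups, against 13.3% of all tested, and in AC all 3 were, against 15.4%. With libraries scaled by the constant that relates the deposited tables, calls were 11 higher and 26 lower in UUO and 7 higher and 22 lower in AC, and none of the 4 calls of these hosts passed. The hosts were chosen on these contrasts, so nothing is read from the calls of these hosts or their overlap with control, and as UUO and AC are set against the same 3 controls, their values are not independent. Control replicate 3 had the lowest value of all 3 tested circRNAs, and leaving it out lowered each of their fold changes against control: in UUO to 2.29 for Ptpn14, 1.12 for Trip6 and 2.19 for mmu_circ_0001745, and in AC to 3.06, 1.83 and 1.67.

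**Figure D2:**
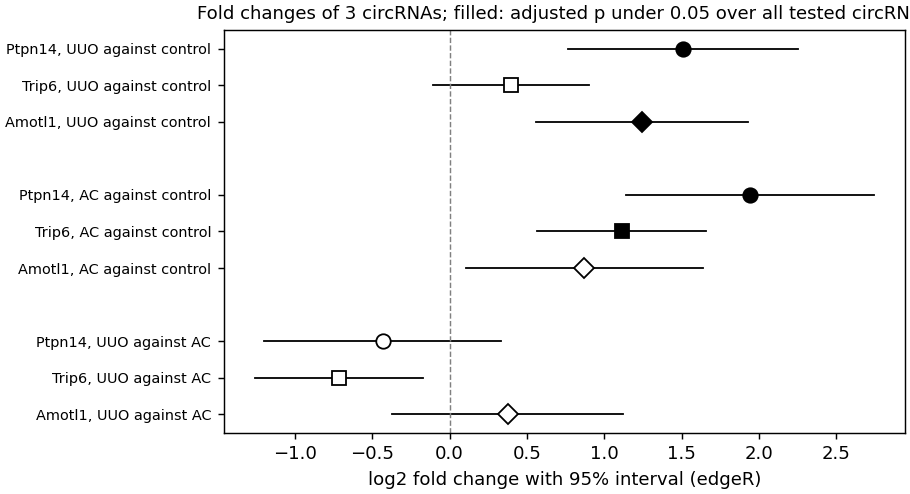
Log2 fold change (x axis) of the 3 tested circRNAs in each of 3 comparisons, with 95% intervals from the edgeR fit; filled symbols had an adjusted p under 0.05 over 1471 circRNAs. The 4 filled symbols are Ptpn14 in UUO and AC, mmu_circ_0001745 of Amotl1 in UUO and Trip6 in AC, and the interval of Trip6 in UUO against AC lies below 0.

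UUO and AC were also compared directly, in the same fit, so that the controls enter its filter, scaling and spread but not the fold change itself. The choice of hosts used the AC and UUO values, however. The fold changes, ranks and overlap of the 3 circRNAs in this comparison are therefore a description too. The Trip6 circRNA was 1.64-fold lower in UUO than in AC (log2 fold change -0.71, SE 0.26), with no overlap between groups, as were 11.1% of all tested circRNAs. It ranked 19 of 1471 by unadjusted p (0.0132) and did not pass (edgeR adjusted p = 0.816, and 0.286 in a fit of UUO and AC alone). The Ptpn14 circRNA had a log2 fold change of -0.43 (SE 0.36, interval from -1.20 to 0.33, adjusted p = 0.939) and mmu_circ_0001745 of Amotl1 one of 0.37 (SE 0.35, interval from -0.37 to 1.12, adjusted p = 0.939). The order of the group means was therefore control, UUO, AC for Ptpn14 and Trip6, and control, AC, UUO for mmu_circ_0001745. For none of these 3 did the difference between the injured groups pass. In this comparison edgeR called 0 of 1471 circRNAs (0%), with 82 (5.57%) at an unadjusted p under 0.05; limma-voom called 0 and DESeq2 called 1, which was none of these 3. A circRNA called in UUO and not in AC, or the reverse, is thus not shown to differ between them.

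The profiles of the 3 circRNAs over the 8 libraries were compared with each other. After each was centred on its own mean log2 CPM, the root mean square difference was 0.51 between Ptpn14 and mmu_circ_0001745 of Amotl1, 0.56 between Ptpn14 and Trip6, and 0.51 between Trip6 and mmu_circ_0001745. Amotl1 was the 10th closest of 1470 circRNAs to Ptpn14 by this measure, Trip6 the 25th closest to Ptpn14, and Amotl1 the 160th closest to Trip6. The hosts were chosen because their circRNAs differed from control, which brings their profiles closer, so nothing is read from these ranks.

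The closest to Ptpn14 were circRNAs of Cacna1c, a calcium channel subunit (mmu_circ_0001511, difference 0.32), Meis2, a homeobox factor (mmu_circ_0009197, 0.35), and Smad1, a transducer of BMP signals (mmu_circ_0001699, 0.36). The control mean of the Smad1 circRNA was 572 ± 221 CPM (SD, n = 3); its AC mean was 1573 ± 292 CPM (SD, n = 2) and its UUO mean 1446 ± 292 CPM (SD, n = 3), past the threshold in both (edgeR adjusted p = 0.0320 and 0.0284). Closest to Trip6 were circRNAs of Plekho1 (mmu_circ_0001150, 0.22), Dusp16, a MAP kinase phosphatase (mmu_circ_0013121, 0.24), and Rbm39, a splicing factor (mmu_circ_0001097, 0.28). The Dusp16 circRNA was called in AC (edgeR adjusted p = 0.0439) and not in UUO (0.385), with 1272 ± 90.9 CPM (SD, n = 3) in control, 2607 ± 345 CPM (SD, n = 2) in AC and 1774 ± 287 CPM (SD, n = 3) in UUO. Closest to mmu_circ_0001745 of Amotl1 were circRNAs of Tns3, a focal adhesion protein (mmu_circ_0000233, 0.15), Dcbld2, a membrane receptor (mmu_circ_0000693, 0.15), and Apbb2, an adaptor of the amyloid precursor protein (mmu_circ_0012733, 0.17). The Tns3 circRNA had a control mean of 4408 ± 747 CPM (SD, n = 3), against 7940 ± 900 CPM (SD, n = 2) in AC and 9069 ± 915 CPM (SD, n = 3) in UUO, and was called in both (edgeR adjusted p = 0.0221 and 0.00459). Over all tested circRNAs of other hosts the median difference was 1.09 from Ptpn14, 0.787 from Trip6 and 0.810 from Amotl1. Cacna1c, Meis2, Plekho1 and Rbm39 passed in neither comparison with control (adjusted p from 0.183 to 0.965), and Dcbld2 and Apbb2 passed in UUO (0.0210 and 0.0426) and not in AC (0.324 and 0.157). These circRNAs were chosen for their likeness, so their values are a description.

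**Figure D3:**
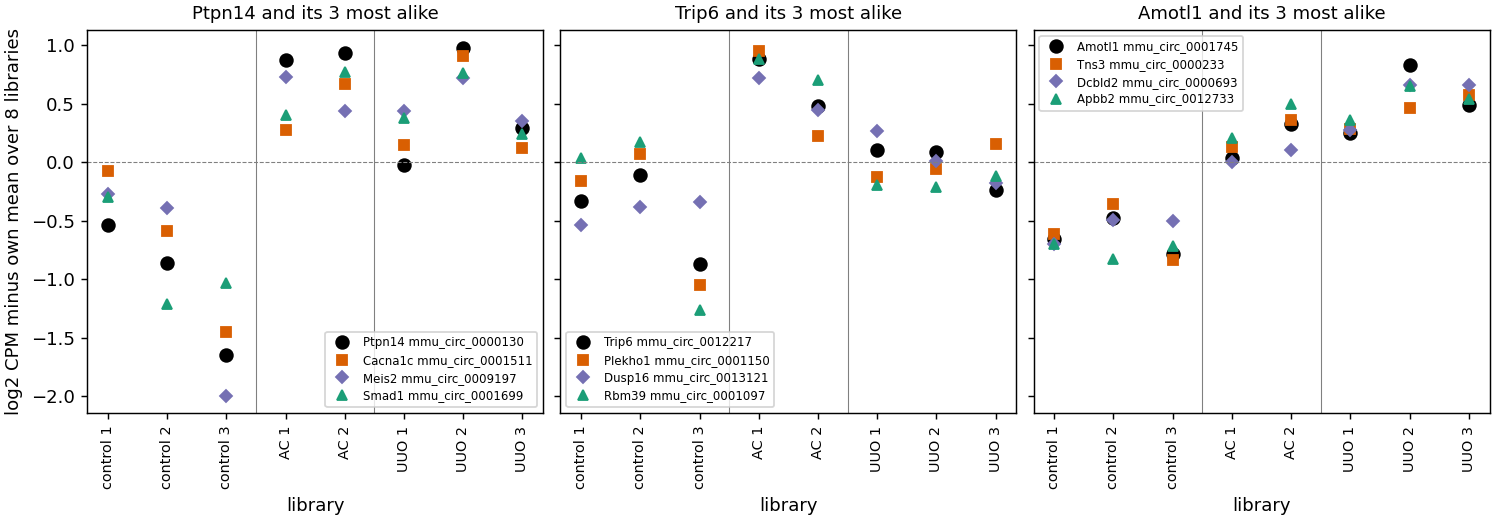
Log2 CPM minus the circRNA's own mean over 8 libraries (y axis) in each library (x axis; lines divide control, AC and UUO) for each of the 3 circRNAs (black) and its 3 closest by root mean square difference. In the Ptpn14 panel control replicate 3 is the lowest library for Ptpn14 (-1.65), Cacna1c and Meis2 and control replicate 2 for Smad1 (-1.22), in the Trip6 panel the AC libraries are highest, and in the Amotl1 panel all 4 circRNAs are below 0 in the controls and above 0 in the injured libraries.

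No other tested circRNA of a listed Hippo host was called. A list of 138 Hippo symbols, older names included, had 121 circRNAs of 44 hosts in the tables, and 33 of these from 23 hosts passed the filter. Leaving out the 3 hosts described above, 30 tested circRNAs of 20 hosts remained. By edgeR 0 passed in UUO, 0 in AC and 0 in UUO against AC, where 4.35%, 3.33% and 0% of all tested circRNAs did. At an unadjusted p under 0.05 there were 0 in UUO, 1 in AC and 0 in UUO against AC. Of all tested circRNAs 15.5%, 14.1% and 5.57% were. Of the 30, 15 had a positive log2 fold change in UUO, against 50.6% of all tested, with a median of 0.02 where that of all tested circRNAs was 0.02. In AC 17 were positive, against 49.4% of all, with a median of 0.18 against -0.02 for all. When libraries were scaled by the constant that relates the deposited tables, 11 were positive in UUO and 13 in AC. The medians were then -0.21 and -0.13, where those of all circRNAs were -0.26 and -0.34. The list was chosen with earlier results of these data known, and the 3 hosts picked for their differences were taken out of it. Nothing is therefore read from the number of calls among the 30.

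Among membrane regulators, Wwc2, a KIBRA-family scaffold that activates Lats, had 2 tested circRNAs with opposite signs. The loop mmu_circ_0014849 had 1644 ± 129 CPM (SD, n = 3) in control, 940 ± 197 CPM (SD, n = 2) in AC and 1254 ± 266 CPM (SD, n = 3) in UUO, and was the 1 circRNA of the 30 at an unadjusted p under 0.05 in AC (0.0222; edgeR adjusted p = 0.244). The loop mmu_circ_0001676 had 2540 ± 487 CPM (SD, n = 3), 3216 ± 382 CPM (SD, n = 2) and 3003 ± 500.1 CPM (SD, n = 3), with an adjusted p of 0.628 in AC. The 2 tested loops of Nf2, the merlin tumour suppressor, also had opposite signs in AC: log2 fold changes of 1.20 (SE 0.57, mmu_circ_0003057) and -1.08 (SE 1.36, mmu_circ_0003059), with adjusted p of 0.354 and 0.785. The loop mmu_circ_0003059 had 4, 19 and 4 counts in control and 7 and 0 in AC, so its sign rests on few counts. Other hosts with several tested loops were Ctnna1, Inadl, Pard3, Strn3, Map4k3, Mark3 and Crim1, of which none had a call in UUO, AC or UUO against AC. Both tested loops of Crim1, a target of Yap1, had positive values in UUO (log2 0.76, SE 0.41 and 0.91, SE 0.47) and did not pass (adjusted p = 0.401 and 0.385).

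A few hosts were looked at for their role after their values had been seen. Tead1 encodes a DNA-binding partner of Yap1. Its tested loop (mmu_circ_0001612) had 452, 453 and 434 CPM in control, 660 and 700.1 CPM in AC and 406, 327 and 588 CPM in UUO. Its AC libraries were above all others and its UUO range held the controls, and neither comparison passed (adjusted p = 0.603 and 0.991). The Lats2 circRNA (mmu_circ_0005309), of a core kinase, had 1, 9 and 10 counts in control, 13 and 16 in AC and 15, 13 and 12 in UUO. It was higher than control with no overlap in AC, as were Tead1 and 15.4% of all tested circRNAs. The same held in UUO, as for 13.3% of all tested circRNAs. Its edgeR adjusted p was 0.366 in AC and 0.427 in UUO. Wtip, a LIM protein of the same wider family as Trip6 (mmu_circ_0014145), had 0, 6 and 0 counts in control, 0 and 0 in AC and 14, 0 and 13 in UUO, so its fitted fold changes rest on few libraries.

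**Figure D4:**
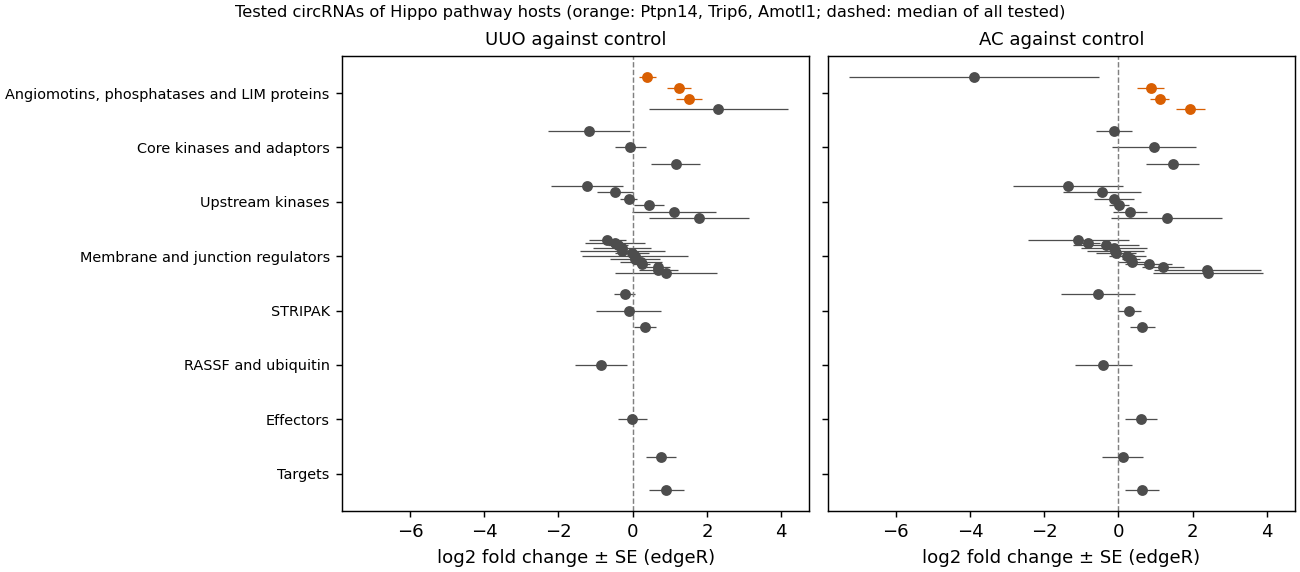
Log2 fold change ± SE (x axis) of the 33 tested circRNAs of listed Hippo hosts by role (y axis), in UUO and in AC against control; orange marks Ptpn14, Trip6 and Amotl1 and the dashed line the median of all 1471 circRNAs. The values in grey lie on both sides of the line; the lowest in AC, at -3.89, is Wtip, which had 0 counts in both AC libraries and whose fitted value is no measured bound.

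The kidney tubule markers with a listed circRNA were 3 of 13 (Klhl3, Lrp2 and Slc4a4). Their 9 circRNAs summed to between 3669 and 6134 CPM in control, 1908 and 2013 CPM in AC and 1575 and 2055 CPM in UUO, with no overlap between control and either injured group. The markers were chosen with earlier results of these data known, so nothing is read from this lack of overlap. The Klhl3 loop mmu_circ_0004688 gave the most counts of the 9 in control, with 229 counts over the 3 controls, 19 over the 2 AC and 40 over the 3 UUO libraries. Of the 5 tested loops, those of Klhl3 passed in UUO (edgeR adjusted p = 0.0419 and 0.0132), and 1 of Klhl3 (0.0221) and 1 of Slc4a4 (0.0400) in AC. The Lrp2 loop did not pass in either (0.401 and 0.676), and the untested Slc4a4 loop mmu_circ_0012840 had 10, 18 and 17 counts in control, AC and UUO. Whether a change in the tubular share of the RNA plays a part in the Ptpn14, Trip6 and Amotl1 values was not tested. Of 8 podocyte and endothelial markers 1 (Flt1) had a listed circRNA, with at most 7 counts in a library. None of the 8 fibroblast and pericyte, 8 immune and 7 urothelial and collecting duct markers had one, so these cell types could not be followed here.

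**Figure D5:**
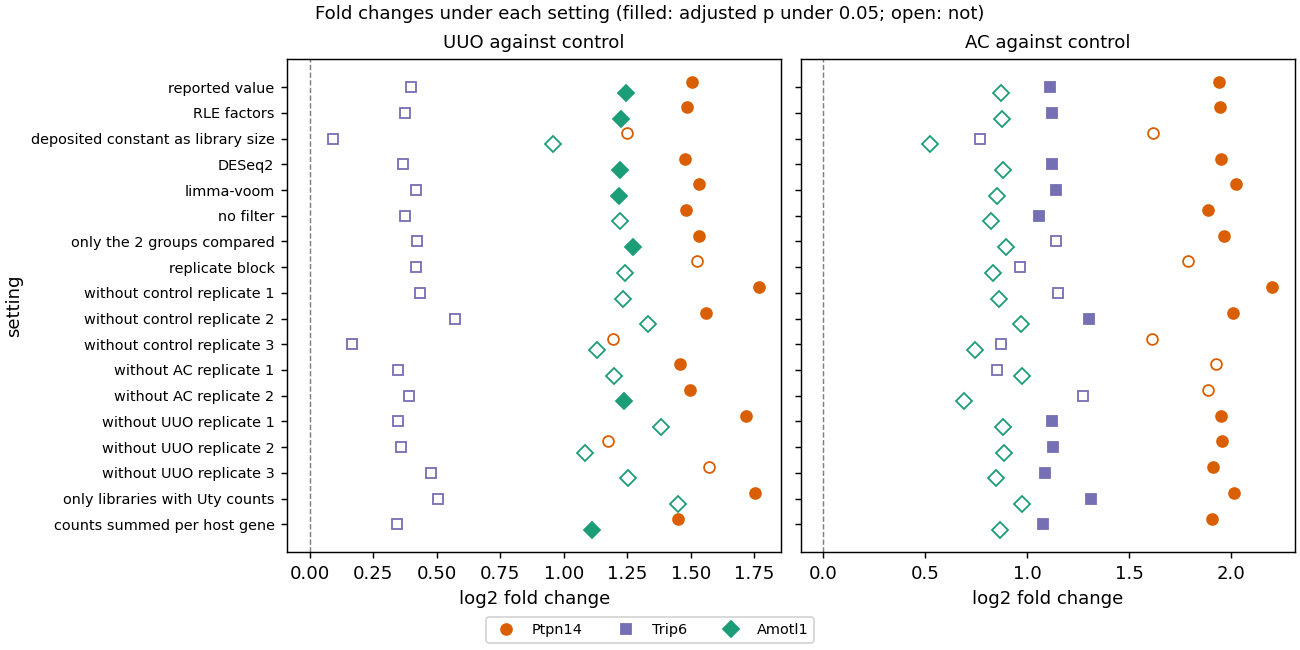
Log2 fold change (x axis) of the 3 tested circRNAs in UUO and AC against control under each setting (y axis); filled symbols had an adjusted p under 0.05. Every value is above 0, Trip6 in UUO and Amotl1 in AC are open in every row, and the 4 reported calls turn open in some of the rows.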

How the data were processed

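CircRNAs were measured in 8 libraries of mouse kidney total RNA (3 control, 2 AC, 3 UUO). Per the file headers, rows are circBase circRNAs with a source transcript and host gene. The first table holds whole-number counts, deposited without normalization. The second holds a signal that, from the values, the authors made from the counts with a constant for every library (8718 to 11941) whose meaning was not stated. The submitters' processing notes name HISAT2, StringTie and mm9 with no role; the caller of circular junctions is not given in these sources.

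Counts went into edgeR 4.0.16 (R 4.3.3), quasi-likelihood test, 3 groups in 1 fit, TMM factors, filterByExpr defaults (count of 10, total of 15; 1471 circRNAs left), Benjamini-Hochberg adjustment over all of them and a threshold of 0.05. Standard errors are |log2 fold change| divided by √F. CPM uses totals after the filter with TMM factors. Likeness used log2 CPM with a prior count of 2. The edgeR code was run on simulated counts with changes in the UUO group only. That run covered UUO against control and not the comparisons that include AC. Alternatives used DESeq2 1.42.0, limma 3.58.1 (voom), RLE factors, the constant as library size, no filter, 2 groups, a replicate block, host sums and 1 library left out.

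The members, the Hippo list, the markers and the naming rules were chosen with earlier results of these data known. Named were all rows of the 3 hosts, list hosts past the threshold or with several tested rows, and the 3 circRNAs closest to each host's most abundant one; Tead1, Lats2 and Wtip were added outside this rule, after their values were seen. No protein sequences are shown.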

Additional observations from a re-analysis of the deposited data

How the results depend on the processing

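Under the 17 settings other than the reported one, each of the 9 fold changes of the 3 tested circRNAs kept its sign, and those that had not passed did not pass. The log2 fold changes with 1 library left out ranged from 1.18 to 1.77 for Ptpn14, 0.17 to 0.57 for Trip6 and 1.08 to 1.38 for Amotl1 in UUO against control, and from 1.61 to 2.20, 0.85 to 1.30 and 0.69 to 0.97 in AC against control. With the deposited constant as library size, which moved the median of all circRNAs to -0.26 in UUO and -0.34 in AC, no call of the 3 held: Ptpn14 was at 1.25 in UUO (adjusted p = 0.0956) and 1.62 in AC (0.0553), Amotl1 at 0.96 in UUO (0.196) and Trip6 at 0.77 in AC (0.313). With no filter Amotl1 in UUO was at 1.22 (adjusted p = 0.0994), in a fit of AC and control alone Trip6 was at 1.14 (0.102), and with only libraries that had Uty counts, chosen after seeing the data, Amotl1 in UUO was at 1.45 (0.0739). What the replicate numbers mark is not stated. Same-numbered libraries had correlated deviations of -0.11, -0.07 and -0.05 in UUO and control. In AC and control they were -0.09 and -0.11, and in AC and UUO 0.042 and 0.036. Between control and UUO, no library correlated best with the library of its own number in the other group. Among the UUO libraries, both AC libraries correlated best with that of their own number. The 2 AC libraries deviate from their mean by equal and opposite amounts, so these matches are not independent. All these correlations are too near 0 to decide whether the numbers pair the libraries. With the replicate numbers as a block, no call of the 3 held. Ptpn14 was at 1.52 in UUO (adjusted p = 0.0711) and 1.79 in AC (0.0784), Amotl1 at 1.24 in UUO (0.0771) and Trip6 at 0.97 in AC (0.134). Calls over all circRNAs were 12 in UUO and 5 in AC. The number of calls in UUO, 64, was 37 (11 higher, 26 lower) with the constant, 100 by DESeq2, 22 with Uty libraries only, and 10 to 75 with 1 library left out. In AC, 49 became 29 (7 higher, 22 lower) with the constant, 14 with 2 groups, 30 with Uty libraries only, and 11 to 38 with 1 library left out. In UUO against AC, 0 became 1 by DESeq2, 4 with no filter, 1 with 2 groups, and 0 to 1 with 1 library left out. The causes were not tested. Where an AC library was left out, the remaining one takes its spread from the other groups by assumption. Counts of 16 to 145 per control library limit the precision of single values.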

Other observations

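The 4 circRNAs of Uty, a gene of the Y chromosome, summed to 0 counts in control replicate 2 and in UUO replicate 1 and to between 7 and 29 counts in the other 6 libraries. The labels used here give no sex. In a fit of those 6 libraries, chosen after seeing the data, the Ptpn14 circRNA was 3.37-fold higher in UUO (edgeR adjusted p = 0.0405) and 4.04-fold higher in AC (0.0113), and the Trip6 circRNA was 2.48-fold higher in AC (0.0119), while mmu_circ_0001745 of Amotl1 was 2.74-fold higher in UUO and did not pass (0.0739).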
